A study of Mus musculus with 8 samples.

Results

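The genes described here are 10 enzymes of the methionine cycle and of transsulfuration, Mat1a, Mat2a, Gnmt, Ahcy, Bhmt, Bhmt2, Cbs, Cth, Dmgdh and Sardh, followed in the livers of mice that lost an actin capping protein in hepatocytes. They were taken by symbol from a table of read counts for 24421 genes, which held all 10, and all 10 were among the 12985 genes with enough counts to be tested. The study compared 4 liver libraries labelled CAPZ_KO with 4 labelled WT, by poly(A) RNA sequencing of perfused liver from adult C57BL/6N mice aged 8 to 10 weeks. All animals of both groups were homozygous for a floxed Capzb allele (Capzb-fl/fl), which encodes the beta subunit of a protein that caps the growing end of actin filaments. CAPZ_KO animals also carried Albumin-CreERT2, a Cre recombinase driven in hepatocytes by the albumin promoter and switched on by tamoxifen, which was injected on 5 consecutive days from an age of 4 to 6 weeks. WT animals were either Capzb-fl/fl mice given tamoxifen or Albumin-CreERT2;Capzb-fl/fl mice left uninjected, and the labels do not say which library came from which. Exposure to tamoxifen, activity of Cre and loss of Capzb cannot be told apart here. The labels do not state that each library is a separate animal, so a p-value here tells only of the spread among the samples, which may be technical.

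The methionine cycle turns dietary methionine into S-adenosylmethionine (SAM), the cell's general methyl donor, and hepatocytes are the main site of this conversion in the body. When SAM gives up its methyl group it leaves S-adenosylhomocysteine, which is split to homocysteine. Homocysteine is either methylated back to methionine, with a methyl group from folate or from betaine, or passed on through cystathionine to cysteine, the route called transsulfuration that feeds taurine and glutathione synthesis.

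Total counts were 12060350 to 18916315 per library in WT and 13122355 to 16984971 in CAPZ_KO. Levels below are CPM, counts divided by a library size that TMM had adjusted. The TMM factors of WT libraries (0.774 to 0.847) were all below those of CAPZ_KO libraries (1.18 to 1.33). Capzb held 109.4 to 139.6 CPM in WT and 64.5 to 79.6 in CAPZ_KO, a change of −0.73 ± 0.125 in log2 level (SE, adjusted p = 0.00134 by edgeR). By Xist and Y-linked counts WT 4 and CAPZ_KO 4 were female and the other 6 libraries male. The hepatocyte markers Alb, Ttr and Apob were abundant in all 8 libraries. Of all 15 hepatocyte markers 13 fell in CAPZ_KO, among them G6pc to a mean of 21.7 CPM. The 15 summed to 194008 to 246851 CPM in WT and 50638 to 73619 in CAPZ_KO. Over all tested genes 19% were lower and 22.4% higher (edgeR adjusted p below 0.05). For endothelial cells 2 of 8 markers rose, a share near that of all tested genes, and for lymphocytes 0 of 9. Larger shares rose for cholangiocytes (5 of 8 tested), stellate cells and fibroblasts (9 of 10), Kupffer cells (5 of 8) and monocyte-derived macrophages (7 of 9). Their summed levels were 43.6 to 80.4 against 370.4 to 1093 CPM for cholangiocytes, 365.9 to 437.9 against 915.0 to 1425 CPM for stellate cells and fibroblasts, 694.3 to 1678 against 1465 to 3967 CPM for Kupffer cells, and 313.6 to 521.8 against 1021 to 1459 CPM for the macrophages. Spp1 is in both the cholangiocyte and the macrophage list and weighs heavily on both sums. Without it, a choice made after seeing the data, 4 of 7 and 6 of 8 markers rose, and the sums were 17.2 to 47.9 against 52.5 to 82.9 CPM and 281.1 to 485.3 against 448.3 to 781.0 CPM, so that the groups overlapped for the macrophages. In whole liver RNA, fewer hepatocytes and less of an mRNA per hepatocyte cannot be told apart, and the part of cell composition in the results below was not tested.

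Of the 10 genes, 7 fell: Mat1a, Gnmt, Ahcy, Bhmt2, Cbs, Dmgdh and Sardh had lower levels in CAPZ_KO with an edgeR quasi-likelihood adjusted p below 0.05, where 19% of all tested genes were lower and 41.4% changed in either direction. None of the 10 rose, where 22.4% of all tested genes did, except that Mat2a was called higher when libraries were scaled by their sizes alone. With TMM 0 were higher at an unadjusted p under 0.05. The same 7 had groups that did not overlap, a pattern shown in this direction by 18.2% of all tested genes. Mat2a, Bhmt and Cth did not pass the test. The median log2 fold change of the 10 was −1.23, beside −0.0029 over all tested genes. The 7 falls ranged from −0.60 for Bhmt2 to −2.24 for Ahcy, which left 66.1% and 21.1% of the WT level. The DESeq2 test and limma-voom each called the same 7 genes and none upwards. The calls depended on scaling: with library sizes alone the median of all tested genes moved from −0.0029 to 0.62, and Gnmt, Ahcy, Cbs and Sardh were still lower. Mat2a was then higher at 0.91 (adjusted p = 0.00372 by edgeR), and Bhmt, Bhmt2 and Cth turned to 0.23, 0.021 and 0.084.

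**Figure D1:**
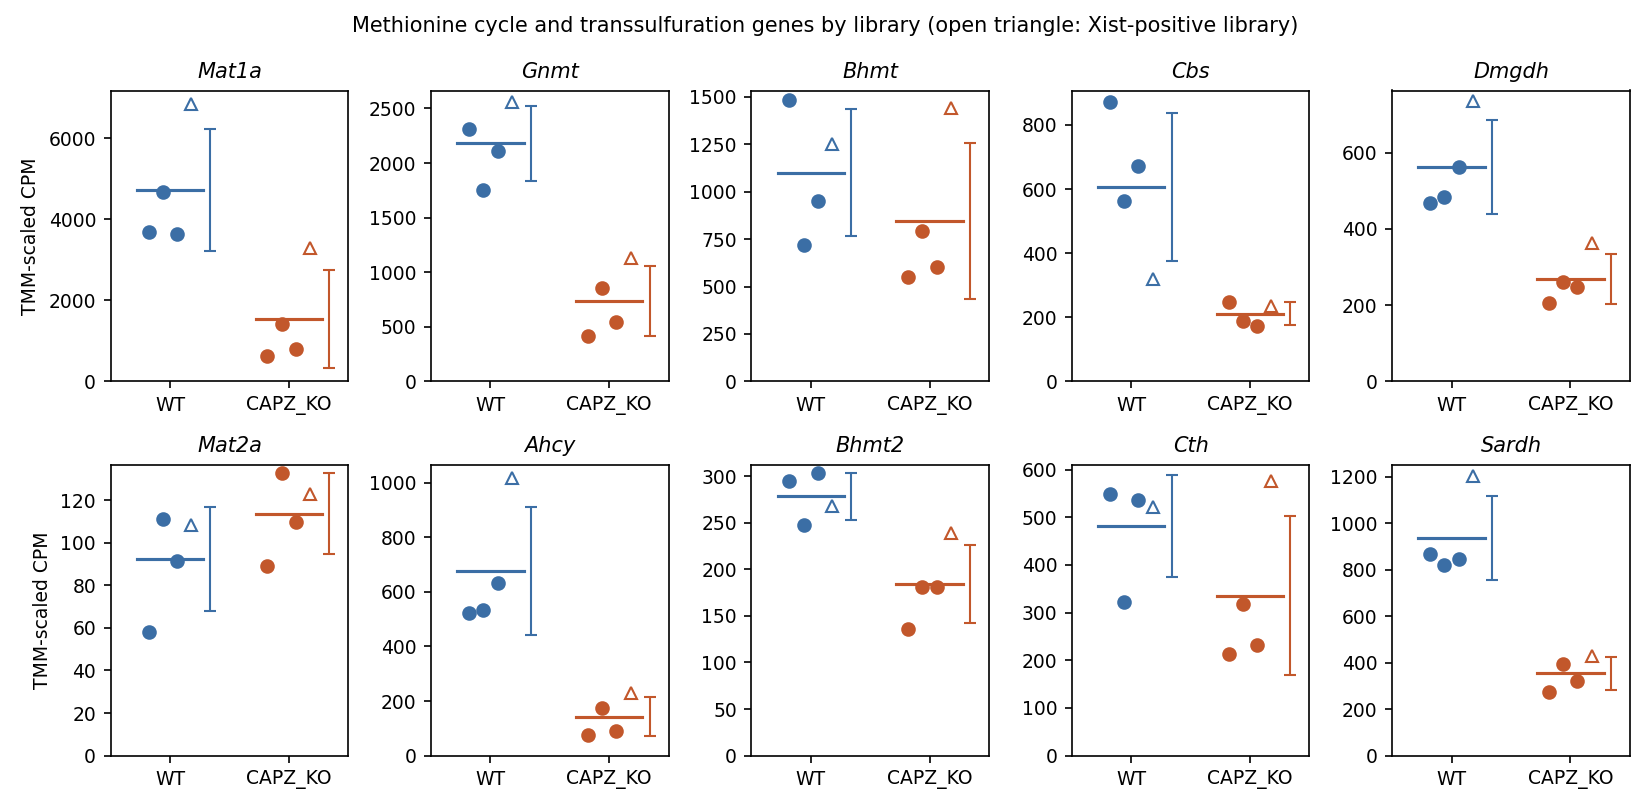
Level of each of the 10 enzymes in the 8 libraries (CPM after TMM scaling, linear axes from 0), with a point for each library, open triangles for the female libraries, a horizontal line at each group mean and error bars of ± 1 SD. In 7 genes every CAPZ_KO point is below every WT point, whereas Mat2a, Bhmt and Cth overlap.

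**Figure D2:**
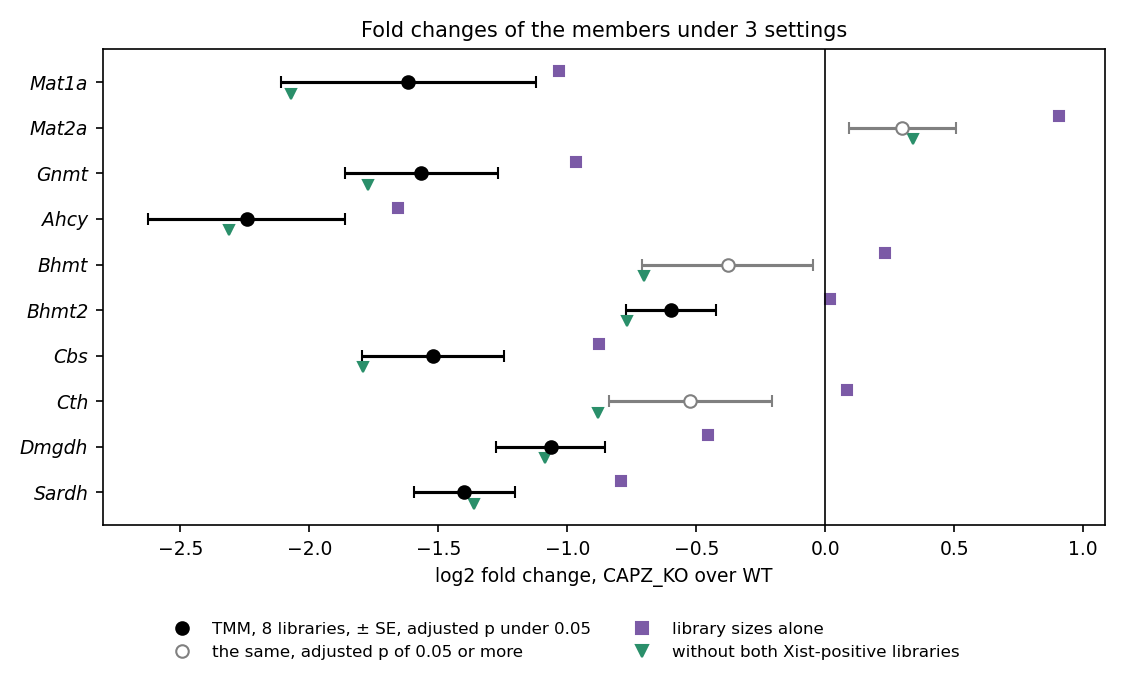
Log2 fold change of each enzyme in CAPZ_KO over WT: circles are the TMM-scaled edgeR estimates with their standard errors, filled where the adjusted p is under 0.05, squares use library sizes alone and triangles leave out both female libraries. Among the circles Ahcy lies lowest at −2.24 and Mat2a is the only gene above 0, at 0.30, whereas the squares of Mat2a, Bhmt, Bhmt2 and Cth are all above 0.

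Synthesis of SAM is shared by products of Mat1a and Mat2a. Mat1a encodes the methionine adenosyltransferase of the adult hepatocyte, and Mat2a the form found in most other cells, in fetal liver and in dividing hepatocytes. Mat1a (chromosome 14, 41105035 to 41124412, plus strand, GRCm38) held 3684, 4670, 3635 and 6849 CPM in the 4 WT libraries and 633.0, 1427, 804.4 and 3282 CPM in the 4 CAPZ_KO libraries. CAPZ_KO 4 was by far the highest of its group and came close to the lowest WT library, but the groups did not overlap. On the log2 scale Mat1a fell by 1.62 ± 0.493 (SE, adjusted p = 0.0261 by edgeR). Its mean was 4710 ± 1504 CPM for WT and 1537 ± 1213 CPM for CAPZ_KO (SD, n = 4). Of the 7 falls this one had the largest adjusted p. Without WT 4, CAPZ_KO 2 or CAPZ_KO 3 the log2 fold change was −1.39, −1.61 or −1.43, with an adjusted p of 0.0620, 0.0603 or 0.0587 by edgeR. Without CAPZ_KO 4 it was −2.31, with an adjusted p of 0.000944 by edgeR.

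Mat2a (chromosome 6, 72432799 to 72439558, minus strand) stood at 58.2, 111.0, 91.6 and 108.3 CPM in WT and at 89.3, 132.9, 109.7 and 122.8 CPM in CAPZ_KO. WT 1 was the lowest library, and the other 3 WT libraries lay among the CAPZ_KO values. The difference in log2 level was 0.30 ± 0.208 (SE, adjusted p = 0.272 by edgeR), with a 95% interval from −0.16 to 0.76. Part of Mat2a's exons, 508 bases, overlaps Particl on the opposite strand, a transcript of at most 1.92 CPM in these libraries. Since the strand setting of the counting is not known, reads of Mat2a and Particl may be mixed. The same limit holds for Bhmt, Dmgdh and Sardh. They share 187, 215 and 188 exon bases with opposite-strand transcripts that were not among the tested genes.

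The pair was also compared within each library, a ratio that does not depend on scaling between libraries. The log2 ratio of Mat1a to Mat2a counts was 5.98, 5.39, 5.31 and 5.98 in WT and 2.83, 3.42, 2.87 and 4.74 in CAPZ_KO. Every CAPZ_KO library was below every WT library, with CAPZ_KO 4 again nearest to WT. The difference was −2.20, a 4.60-fold lower ratio, with an exact two-sided permutation p of 0.0286, the smallest that 70 arrangements of 4 against 4 allow, and 0.143 after adjustment over the 5 enzyme pairs compared. Among male libraries alone the difference was −2.52. Per kilobase of exon, Mat2a made up 1.59% to 2.51% of Mat1a and Mat2a together in WT, and 12.6%, 8.70%, 12.2% and 3.69% in the CAPZ_KO libraries 1 to 4. The 3 genes whose levels followed Mat1a most closely over the 8 libraries, out of 9934 candidates, were Slc37a4 (Pearson r of log2 CPM 0.986), Oplah (0.985) and Agpat3 (0.980). For Mat2a they were Timd4 (0.984), which is also in the Kupffer cell list, Myo19 (0.977) and Stard3 (0.976).

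**Figure D3:**
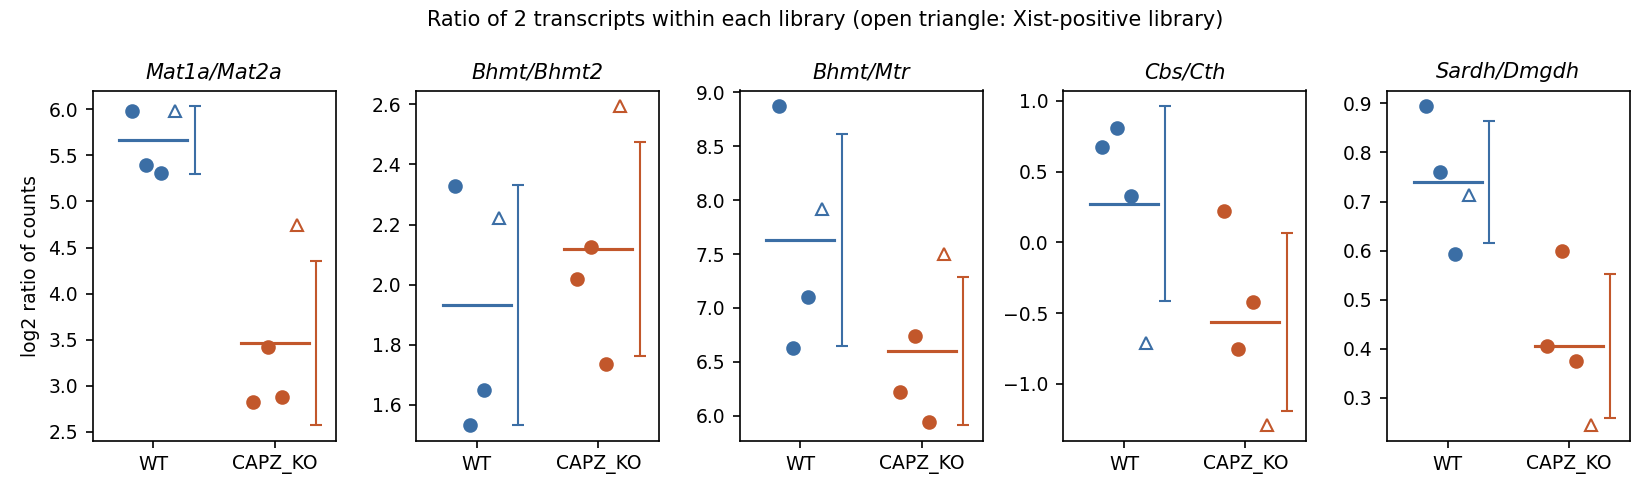
Log2 ratio of the counts of 5 enzyme pairs within each library, by group, with a point for each library, open triangles for the female libraries, a line at each mean and error bars of ± 1 SD. The ratio of Mat1a to Mat2a is the only one of the 5 in which the groups do not overlap: the WT libraries span 5.31 to 5.98 and the CAPZ_KO libraries 2.83 to 4.74.

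Use and clearance of SAM run through Gnmt and Ahcy. Gnmt encodes glycine N-methyltransferase, an abundant liver enzyme that takes up surplus SAM by methylating glycine to sarcosine. Gnmt (chromosome 17, 46725664 to 46729168, minus strand) held 2312, 1749, 2106 and 2557 CPM in WT and 416.3, 852.9, 541.9 and 1134 CPM in CAPZ_KO. All CAPZ_KO libraries were well under the lowest WT library. Gnmt fell by 1.57 ± 0.297 on the log2 scale (SE, adjusted p = 0.00229 by edgeR), which left 33.8% of the WT level.

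Ahcy encodes adenosylhomocysteinase, the enzyme that removes S-adenosylhomocysteine, itself an inhibitor of methyltransferases. Ahcy (chromosome 2, 155059310 to 155074497, minus strand) stood at 522.4, 533.2, 633.0 and 1018 CPM in WT and at 76.9, 175.1, 89.5 and 230.1 CPM in CAPZ_KO. The female library was the highest of each group, and even the highest CAPZ_KO library was far below the lowest WT library. Its log2 fold change of −2.24 ± 0.380 (SE, adjusted p = 0.00141 by edgeR) was the largest of the 10. Ahcy has near-identical copies in the genome, so its count is uncertain to the extent that reads were shared. The copy Gm4737, alike at 99.7% of 2086 aligned bases, took 239 counts over the 8 libraries beside 48799 for Ahcy, and it too was lower (−2.29 ± 0.341 on the log2 scale, SE, adjusted p = 0.000591 by edgeR).

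The stretches just before the starts of Ahcy, the gene of the 10 with the largest fall, and of Mat2a, the gene with the highest fold change, differ in base composition and are shown for that contrast. Both are from RefSeq on GRCm38, written 5′ to 3′ on the minus strand, Ahcy at chr2:155074498-155074747 and Mat2a at chr6:72439557-72439806, with every CpG in capitals.
Ahcy: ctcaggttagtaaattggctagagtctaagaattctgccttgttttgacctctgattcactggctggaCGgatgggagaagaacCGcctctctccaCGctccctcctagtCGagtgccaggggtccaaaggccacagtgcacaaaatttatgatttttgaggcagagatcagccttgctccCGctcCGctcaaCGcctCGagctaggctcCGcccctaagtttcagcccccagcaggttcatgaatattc
Mat2a: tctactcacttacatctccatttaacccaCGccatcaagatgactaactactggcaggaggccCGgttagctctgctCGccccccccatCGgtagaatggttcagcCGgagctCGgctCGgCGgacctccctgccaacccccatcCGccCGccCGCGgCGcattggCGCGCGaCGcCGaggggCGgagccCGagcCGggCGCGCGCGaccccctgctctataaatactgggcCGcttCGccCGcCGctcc
The 250 bases of Ahcy hold 9 CpG and 52.8% G and C, and those of Mat2a hold 29 CpG and 67.6% G and C. Promoter windows of 300 bases were at hand for 8 of the 10 genes, Mat1a and Cth being the others, and held 34 CpG in Mat2a, 26 in Bhmt2, 25 in Dmgdh, 22 in Cbs, 13 in Ahcy, 11 in Gnmt, 8 in Bhmt and 4 in Sardh, where the median of 32851 windows was 7. Genes that fell thus had both CpG-rich and CpG-poor windows. Of the motifs searched on both strands, CCAAT was in 5 of the 8 windows (37.4% of all windows), CACGTG in that of Cbs alone (7.15%) and TATAAA in that of Mat2a alone (13.6%). The letters TGATGNAA (3.97%), TGACNNNGC (12.4%) and CAAAGTNCA (1.41%), and an HNF1-type motif (0.0609%), were in none of the 8.

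Return of homocysteine to methionine with betaine is the task of Bhmt, while Bhmt2 uses S-methylmethionine as donor. Bhmt (chromosome 13, 93616675 to 93637961, minus strand) held 1480, 717.4, 950.9 and 1250 CPM in WT and 550.1, 790.5, 602.8 and 1440 CPM in CAPZ_KO. CAPZ_KO 4 was second only to WT 1, and the groups overlapped. Its log2 fold change of −0.38 ± 0.330 (SE, adjusted p = 0.384 by edgeR) had a 95% interval from −1.11 to 0.36. Without CAPZ_KO 4 it was −0.77 with an adjusted p of 0.0438 by edgeR, and without both female libraries, CAPZ_KO 4 among them, −0.70 with 0.0749. Bhmt also has near-identical copies, Gm5096 and Bhmt-ps1, alike at 99.4% and 98.9% of aligned bases, which makes its count uncertain.

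Bhmt2 (chromosome 13, 93655720 to 93674302, minus strand) varied little within WT, with 294.8, 247.8, 303.1 and 268.2 CPM, beside 135.6, 181.4, 180.8 and 238.6 CPM in CAPZ_KO. CAPZ_KO 4 lay just under the lowest WT library. Its fall of −0.60 ± 0.175 in log2 level (SE, adjusted p = 0.0200 by edgeR) was the smallest of the 7, and it was 0.021, with the direction turned, when library sizes alone were used. Without WT 3 the adjusted p by edgeR was 0.0517. The log2 ratio of Bhmt to Bhmt2 within a library differed by 0.19 between the groups (exact two-sided permutation p = 0.543, also 0.543 after adjustment over the 5 pairs). Mtr, methionine synthase, remethylates homocysteine with folate and had a mean of 5.59 CPM in WT against 8.11 in CAPZ_KO. Its log2 fold change of 0.52 ± 0.252 (SE) had an adjusted p of 0.120 by edgeR. The ratio of Bhmt to Mtr was lower by −1.03 on the log2 scale in CAPZ_KO, with overlapping groups (exact two-sided permutation p = 0.143, adjusted 0.179).

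Betaine that has given up a methyl group becomes dimethylglycine, which Dmgdh, dimethylglycine dehydrogenase, oxidises to sarcosine, and Sardh, sarcosine dehydrogenase, takes sarcosine on to glycine in mitochondria. Dmgdh (chromosome 13, 93674433 to 93752833, plus strand) held 468.1, 484.6, 561.3 and 736.2 CPM in WT and 206.6, 261.0, 247.1 and 362.0 CPM in CAPZ_KO. Library 4 was the highest in both groups, and the groups were apart. Dmgdh fell by 1.06 ± 0.211 on the log2 scale (SE, adjusted p = 0.00293 by edgeR). Sardh (chromosome 2, 27188393 to 27248337, minus strand) held 869.8, 820.9, 846.3 and 1206 CPM in WT and 273.8, 395.6, 320.3 and 429.1 CPM in CAPZ_KO. The 4 CAPZ_KO libraries lay close together, all far below the lowest WT library. With −1.40 ± 0.195 (SE), Sardh had the smallest adjusted p of the 10, 0.000404 by edgeR. The log2 ratio of Sardh to Dmgdh averaged 0.74 ± 0.125 for WT and 0.41 ± 0.147 for CAPZ_KO (SD, n = 4). An exact two-sided permutation test of this difference gave p = 0.0571, or 0.143 after adjustment.

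Bhmt, Bhmt2 and Dmgdh lie in a row on chromosome 13, which allows neighbours to be compared. Bhmt2 and Dmgdh start 134 bases apart and are read in opposite directions, and both fell. The stretch between the 2 starts is shown on the plus strand, so that Dmgdh is read from its right end, with every CpG in capitals (RefSeq starts, GRCm38, chr13:93674303-93674435).
Bhmt2 to Dmgdh: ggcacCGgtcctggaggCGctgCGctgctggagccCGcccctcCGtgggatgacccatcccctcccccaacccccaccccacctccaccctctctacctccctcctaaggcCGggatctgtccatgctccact
These 133 bases hold 6 CpG and 69.9% G and C. Bhmt starts 17758 bases beyond the end of Bhmt2 and did not pass the test. Of 5 other tested genes within 500 kb of the row, 2 were lower and 0 higher, where 19% and 22.4% of all tested genes were. Among 605 pairs of tested genes with starts at most 1000 bases apart in opposite directions, both were lower in 50 pairs (8.26%), 1 of the 2 in 173 pairs, and both were higher in 19.

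**Figure D4:**
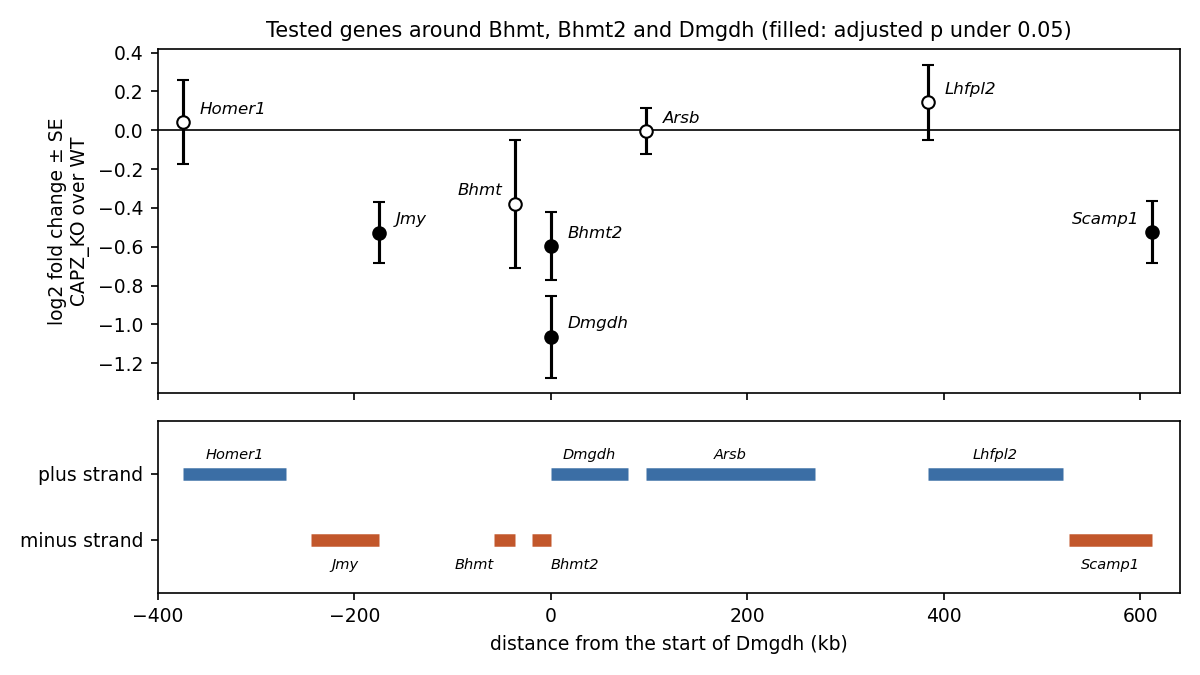
Log2 fold change in CAPZ_KO over WT with its standard error for the tested genes around Bhmt, Bhmt2 and Dmgdh on chromosome 13 (above), and the extent and strand of each gene (below), against distance in kb from the start of Dmgdh. Bhmt2 at −0.60 and Dmgdh at −1.06 share the position 0, with Bhmt at −0.38 beside them.

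Transsulfuration starts with Cbs, cystathionine beta-synthase, which joins homocysteine to serine, and ends with Cth, cystathionine gamma-lyase, which releases cysteine. Cbs (chromosome 17, 31608894 to 31637238, minus strand) held 872.6, 563.2, 671.3 and 319.1 CPM in WT and 247.7, 188.8, 173.8 and 235.3 CPM in CAPZ_KO. WT 4, the female library, was the lowest of its group, unlike in Mat1a, Ahcy, Gnmt, Dmgdh and Sardh, where it was the highest, yet it was still above every CAPZ_KO library. Cbs fell by 1.52 ± 0.277 on the log2 scale (SE, adjusted p = 0.00187 by edgeR).

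Cth (chromosome 3, 157894248 to 157925077, minus strand) held 547.9, 321.3, 535.1 and 522.0 CPM in WT and 212.8, 319.0, 233.0 and 575.5 CPM in CAPZ_KO. CAPZ_KO 4 was the highest of all 8 libraries, whereas the other 3 CAPZ_KO libraries were below every WT library. In log2 units the difference was −0.52 ± 0.316 (SE, adjusted p = 0.210 by edgeR), with a 95% interval from −1.23 to 0.18. Without CAPZ_KO 4 it was −0.92 with an adjusted p of 0.0126, and without both female libraries −0.88 with 0.0217, both by edgeR. The log2 ratio of Cbs to Cth was lower by −0.84 in CAPZ_KO, within the spread of the libraries (exact two-sided permutation p = 0.114, adjusted 0.179).

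Set against each other per kilobase of exon, the enzymes spanned a wide range. In WT the order of mean level ran Gnmt (2107 CPM per kb), Mat1a (1358), Bhmt (441.7), Ahcy (266.1), Cth (265.3), Sardh (207.0), Dmgdh (188.0), Bhmt2 (112.9), Cbs (96.8) and Mat2a (27.2). The ranges of neighbours in this order overlapped, except those of Mat1a and Bhmt, Dmgdh and Bhmt2, and Cbs and Mat2a. Of neighbours with overlapping ranges, Gnmt was above Mat1a and Bhmt above Ahcy in 4 of 4 WT libraries. The other such neighbours kept the order in 2 or 3 of 4. In CAPZ_KO Gnmt (711.3), Mat1a (443.1) and Bhmt (339.7) again came first, Cth (184.6) followed, and Ahcy dropped from the fourth to the eighth place at 56.2 CPM per kb. Cbs and Mat2a came last there at 33.7 and 33.5 CPM per kb, and the ranges of all neighbours overlapped. Within single libraries Gnmt was above Mat1a, Bhmt above Cth, Cth above Dmgdh and Bhmt2 above Ahcy in 4 of 4 CAPZ_KO libraries. The other CAPZ_KO neighbours kept the order in 2 or 3 of 4. The 10 genes together took 0.821% to 1.26% of a WT library's counts and 0.377%, 0.558%, 0.416% and 0.965% of those of CAPZ_KO 1 to 4.

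The CAPZ_KO libraries kept a common order across the enzymes. CAPZ_KO 4 was the highest of its group in 8 of 10 genes, all but Mat2a and Cbs, and CAPZ_KO 1 was the lowest in 9 of 10, all but Cbs. How often these libraries held those places over all tested genes was not counted, so this order may not be particular to the enzymes. In CAPZ_KO 4 Mat1a was at 3.44 times the mean of the other 3 CAPZ_KO libraries, Cth at 2.26, Bhmt at 2.22, Ahcy at 2.02 and Gnmt at 1.88 times, against 1.16 for Cbs and 1.11 for Mat2a. The 10 enzymes summed to 2842, 4724, 3303 and 8049 CPM in CAPZ_KO 1 to 4, and the 15 hepatocyte markers to 50638, 73619, 57625 and 66131 CPM. Alb alone makes up 51.9% to 72.3% of the marker sum over the WT and CAPZ_KO libraries together. Taken singly, 8 of the 15 markers were highest of the CAPZ_KO group in CAPZ_KO 4 and 5 in CAPZ_KO 2, while 7 were lowest in CAPZ_KO 1. Tat, an enzyme of tyrosine breakdown picked after its values were seen, had 286.5, 469.3, 326.0 and 1042 CPM in CAPZ_KO 1 to 4, an order like that of Mat1a. Cholangiocyte markers were lowest in CAPZ_KO 4, at 370.4 CPM or 52.5 without Spp1, and highest in CAPZ_KO 1, at 1093 CPM or 82.9 without Spp1. The part of hepatocyte content or state in the order of these libraries was not tested. CAPZ_KO 4 is also the only female library of its group, so sex and this library cannot be told apart there. With sex as a term in the edgeR fit the same 7 genes were lower, and without both female libraries these 7 and Cth were.

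The genes around these enzymes were counted from 5 pathway lists. Of 83 listed genes 81 were tested, and 39 were lower, 13 higher and 29 not called, with a median log2 fold change of −0.37. The 13 higher genes are a smaller share than the 22.4% over all tested genes, and the 39 lower ones a larger share than the 19% there. All adjusted p in this and the next paragraphs are from edgeR, over all tested genes. Among 15 partners of the SAM cycle 8 were lower and 1 higher (median −0.37). Inmt and Nnmt, methyltransferases that use SAM on indole amines and on nicotinamide, fell, with −3.21 ± 0.314 and −2.36 ± 0.356 on the log2 scale (SE, adjusted p = 6.74e-05 and 0.000761). Gamt, which makes creatine, and Pemt, which makes phosphatidylcholine, had −1.18 ± 0.147 and −0.81 ± 0.162 (SE, adjusted p = 0.000213 and 0.00296). Adk, adenosine kinase, which clears the other product of Ahcy, had −0.85 ± 0.182 (SE, adjusted p = 0.00423). Mat2b, the regulatory partner of the Mat2a product, had −0.12 ± 0.125 (SE, adjusted p = 0.467). Tpmt, a methyltransferase of thiopurines, was the 1 gene higher, at 0.52 ± 0.171 (SE, adjusted p = 0.0321). That call was lost when WT 1, WT 2, WT 4, CAPZ_KO 1, CAPZ_KO 2 or CAPZ_KO 3 was left out, and the count of 8 lower genes was 5 without WT 3.

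Folate one-carbon genes, supply the methyl group for Mtr. Of 21, 11 were lower and 2 higher (median −0.54). Cytosolic Mthfd1 and Shmt1 had −1.28 ± 0.126 and −1.29 ± 0.136 (SE, adjusted p = 6.56e-05 and 9.09e-05). The 2 that rose, Mthfd2 and Mthfd1l, encode mitochondrial enzymes of steps that Mthfd1 carries out. They went from 1.60 to 6.90 CPM and from 2.37 to 11.7 CPM, with 2.12 ± 0.386 and 2.25 ± 0.490 (SE, adjusted p = 0.00184 and 0.00525). Mitochondrial Shmt2 and Gcsh, however, had −0.83 ± 0.129 and −0.81 ± 0.133 (SE, adjusted p = 0.000736 and 0.00101), and without WT 1 the number of higher genes was 4. Slc46a1, the proton-coupled folate transporter, had −1.15 ± 0.135 (SE, adjusted p = 0.000161).

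Of 13 genes of choline oxidation and use, 7 were lower and 0 higher by edgeR (median −0.64), with 1 higher by the DESeq2 test and by limma-voom. Chdh and Aldh7a1 make the betaine that Bhmt consumes. Chdh did not pass, with −0.21 ± 0.136 (SE, adjusted p = 0.235), and Aldh7a1 had −0.64 ± 0.140 (SE, adjusted p = 0.00478). Slc6a12, a betaine transporter, had −1.59 ± 0.135 (SE, adjusted p = 3.21e-05). Pipox, a peroxisomal oxidase that uses sarcosine as Sardh does, had −1.53 ± 0.172 (SE, adjusted p = 0.000133). Chpt1 and Pcyt2, of phospholipid synthesis, had −1.73 ± 0.184 and −1.01 ± 0.159 (SE, adjusted p = 9.5e-05 and 0.000792).

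Among 20 genes of cysteine, taurine, sulfide and glutathione 9 were lower and 6 higher (median −0.47). Cdo1 and Csad, which turn cysteine towards taurine, had −1.37 ± 0.274 and −2.03 ± 0.338 (SE, adjusted p = 0.00308 and 0.00128). The sulfurtransferases Mpst and Tst had −1.52 ± 0.165 and −1.23 ± 0.147 (SE, adjusted p = 0.000108 and 0.000183), and Papss2, which activates sulfate, had −1.66 ± 0.233 (SE, adjusted p = 0.000411). Papss1, which encodes an enzyme of the same step, was among the higher genes, at 0.48 ± 0.175 (SE, adjusted p = 0.0474), with overlapping groups. That call was lost when any library but CAPZ_KO 4 was left out, and by the DESeq2 test and limma-voom. Genes of glutathione synthesis and recycling were among the higher ones: Gss had 1.16 ± 0.139, Gsr 0.79 ± 0.158 and Gclc 0.58 ± 0.168 (SE, adjusted p = 0.000186, 0.00311 and 0.0187). Gclc lost the call without WT 3, CAPZ_KO 1 or CAPZ_KO 2, and Gclm, the partner subunit of Gclc, had 0.12 ± 0.137 (SE, adjusted p = 0.495). Slc7a11, the cystine importer, had 1 count over the 4 WT libraries, 3 of which were at 0, and 684 counts over the 4 CAPZ_KO libraries. The ratio of the 2 after scaling was 472 with a 95% counting interval of 84.4 to 18656 (edgeR adjusted p = 0.00104). This interval, like that of Ggt1 below, pools the counts of a group and leaves out the spread between libraries. Slc7a11 stood at 18.3, 8.52, 5.44 and 0.869 CPM in CAPZ_KO 1 to 4. Ggt1, which takes extracellular glutathione apart and is in the adult liver found mainly in bile duct cells, had 4 counts in WT and 79 in CAPZ_KO, a ratio of 13.6 with a counting interval of 5.11 to 51.2 (edgeR adjusted p = 0.00014). Cholangiocyte and macrophage markers rose in the same libraries, and their part in the rise of Slc7a11 and Ggt1 was not tested.

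Polyamine synthesis consumes decarboxylated SAM, and its by-product is salvaged to methionine. Of 14 listed genes 12 were tested, 4 were higher and 4 lower (median 0.21). Amd1 was listed at 0 in all 8 libraries and Oaz1 had at most 6 counts in any. The globin genes Hba-a1, Hba-a2, Hbb-bs and Hbb-bt were also listed at 0 in all 8. The treatment of multi-mapping reads is not known, so these counts do not show that Amd1 or Oaz1 was silent. Smox and Sat1, which break polyamines down, had 1.90 ± 0.190 and 0.84 ± 0.120 (SE, adjusted p = 7.11e-05 and 0.000471). Paox, the peroxisomal polyamine oxidase, and Azin1, an antizyme inhibitor, had −1.82 ± 0.171 and −1.33 ± 0.192 (SE, adjusted p = 5.01e-05 and 0.000495). In the salvage branch Mri1 and Enoph1 were higher, with 0.63 ± 0.146 and 0.68 ± 0.214 (SE, adjusted p = 0.00662 and 0.0277), and Apip and Adi1 lower, with −0.67 ± 0.170 and −0.69 ± 0.120 (SE, adjusted p = 0.0101 and 0.00135). The call of Enoph1 was lost without WT 1, WT 3, CAPZ_KO 1, CAPZ_KO 2 or CAPZ_KO 3 and with the replicate block. Tpmt, Mthfd1l, Papss1, Gclc, Gsr, Cdo1, Csad, Apip and Enoph1 were added to the named genes with their values known. The split of all these lists depends on scaling. With library sizes alone, higher and lower genes numbered 6 and 3 for SAM cycle partners, 7 and 4 for folate, 4 and 4 for choline, 9 and 8 for cysteine and glutathione, and 8 and 2 for polyamines and salvage. Mtr, Gclm, Mat2b and Chdh were then called higher, at 1.15, 0.75, 0.50 and 0.41. The calls of Pemt, Adk, Shmt2, Gcsh, Aldh7a1, Apip and Adi1 were lost.

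**Figure D5:**
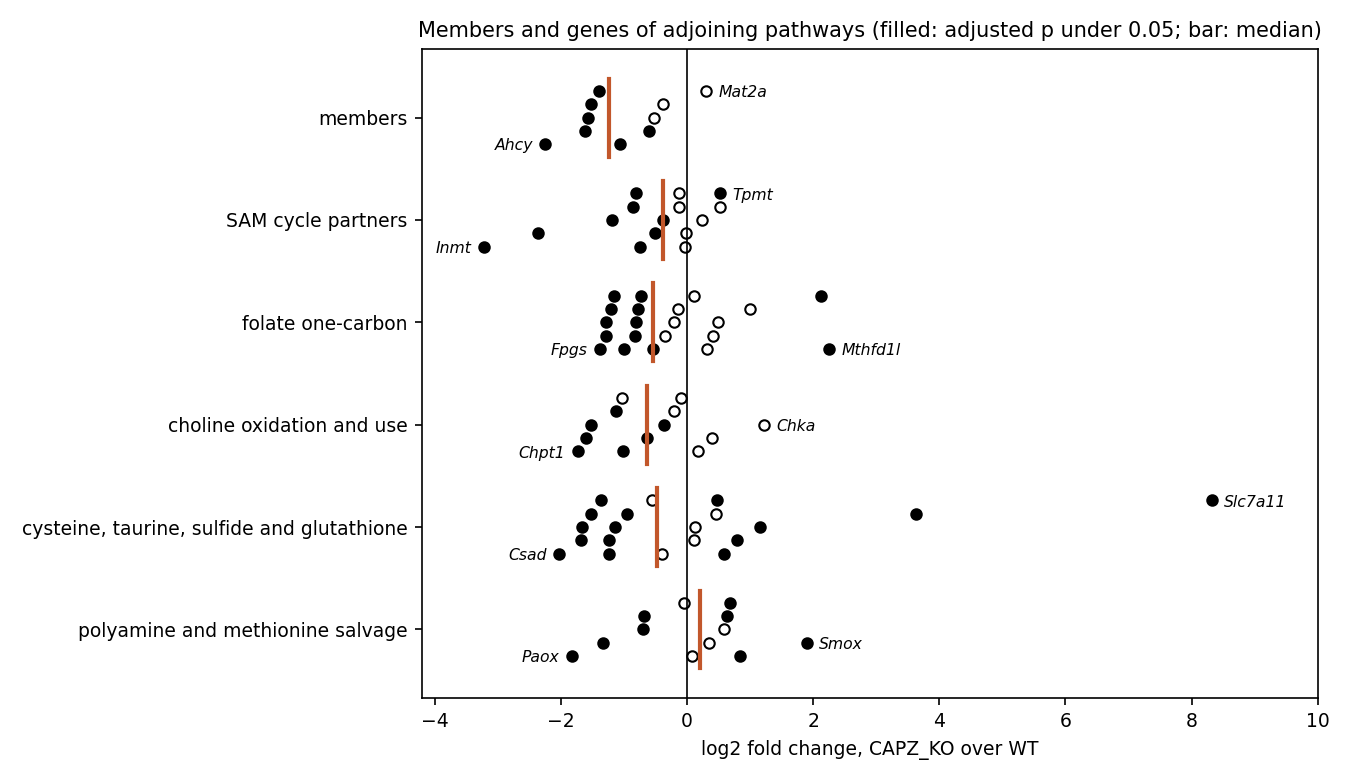
Log2 fold change in CAPZ_KO over WT of the 10 enzymes and of the tested genes of 5 pathway lists, 1 point a gene, filled where the edgeR adjusted p is under 0.05, with a bar at each median. The 10 enzymes have the lowest median, −1.23, and Slc7a11 stands far to the right.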

How the data were processed

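RNA of perfused liver was sequenced in 4 WT and 4 CAPZ_KO libraries made with a TruSeq Stranded mRNA kit, per the labels' protocols. The values deposited by the authors are raw read counts per gene symbol. The submitters' processing notes name mm10 as build and, without role or order, the tools edgeR, featureCounts, STAR 2.5.3a, bcl2fastq and R 3.3.1. Not given in the sources used here are annotation, strand setting and treatment of multi-mapping reads, so overlapping genes and near-identical copies may share reads.

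Genes were kept by filterByExpr of edgeR 4.0.16 (at least 10 counts in enough libraries and 15 in total), a step that removed 0.0451% to 0.109% of a library's counts, scaled by TMM and tested by edgeR's quasi-likelihood test with robust dispersion over all 8 libraries, without covariates, with Benjamini-Hochberg adjustment over 12985 genes and calls at 0.05 (limma 3.58.1 in R 4.3.3). The procedure was tested on simulated data. CPM are counts scaled to library size after TMM, and fold changes are CAPZ_KO over WT. Ratios added 0.5 to each count and used exact permutation tests. Positions are from GENCODE vM21 on GRCm38, copies from blastn 2.17.0 against its transcripts, and promoter windows (250 bases before to 50 after a start) from RefSeq on GRCm38.p6. Alternatives were the tests of DESeq2 1.42.0 and limma-voom, 3 other scalings and 2 other filters, the replicate number as a block, a term for sex, fits without 1 library or without both female ones, and 5 added in the ratios.

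The members and lists were chosen with earlier results of these data known. Genes named are the members, Capzb, Mtr, from each pathway list up to 6 with the smallest p among those past the threshold and up to 2 with the largest mean CPM among the others, and for Mat1a and Mat2a the 3 genes of at least 5 CPM with the closest pattern of log2(CPM + 1).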

Additional observations from a re-analysis of the deposited data

Results flagged for a closer look

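In 9 of 112 groups of 4 libraries, 1 library stood apart from the other 3 by more than Dixon's limit, which chance passes in about 5% of groups. Among the 10 enzymes these were Cth in WT 2, lower than the other WT libraries at 321.3 CPM, and Sardh in WT 4, higher than the others at 1206 CPM. WT 4, the female WT library, was also apart for Gamt at 337.6 CPM and for Nnmt at 318.3 CPM. CAPZ_KO 4, the female CAPZ_KO library, was apart for Nnmt at 94.2 CPM and for Chpt1 at 74.6 CPM. Gclc and Ggt1 stood apart in WT 1, at 272.0 and 0.107 CPM, the latter from 4 counts over the WT group. Slc7a11 had its single WT count in WT 4, at 0.0648 CPM, and 0 in the other 3.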

How the results depend on the processing

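Of the settings run, library sizes alone, without TMM, moved the counts over all genes and over the 10 enzymes by over 1.5 times: 7665 genes were higher and 700 lower, against 2913 and 2469, and among the 10 enzymes 1 was higher and 4 lower, against 0 and 7. It turned the direction of Bhmt (0.23), Bhmt2 (0.021), Cth (0.084), Mat2b (0.50) and Chdh (0.41), and it ended the calls of Mat1a (−1.03), Dmgdh (−0.46) and Capzb (−0.10). The other scalings, filters and tests, and sex as a term, kept the same 7 enzymes lower. Counts of single pathway lists also moved under other settings, such as genes of choline oxidation and use that were higher, 1 against 0 by upper quartile scaling, by the DESeq2 and limma-voom tests and with the replicate block. Leaving out 1 library gave 6 to 9 lower enzymes, and the 6 lacked Mat1a or Bhmt2. The log2 ratio of Mat1a to Mat2a stayed apart between groups with 5 added to each count. With the replicate block the same 7 were lower, Mat1a at −1.87 and Mat2a at 0.33, with adjusted p of 0.000769 and 0.0731 by edgeR. Libraries with the same number correlated by 0.24, 0.0089, 0.066 and 0.30 in their deviations from group means. Between differing numbers the correlation was at most 0.11. Of the libraries, 3 of 4 WT and 2 of 4 CAPZ_KO correlated best with their own number. The labels state no litter or batch for the numbers, so the main fit did not pair them. These values do not settle whether the numbers mark pairs. Depth did not limit the enzymes, which were far above the filter, but did limit Slc7a11 and Ggt1 in WT. With 4 libraries a group and 1 female each, single libraries weigh on several calls. Bhmt and Cth were called lower without CAPZ_KO 4, the only female library of its group, so sex and this library cannot be told apart. The call of Mat1a was lost without WT 4, CAPZ_KO 2 or CAPZ_KO 3, and that of Bhmt2 without WT 3.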
